A study of Mus musculus with 6 samples.

Results

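Dazl and 8 further genes of RNA-binding proteins, or of proteins that bind DAZL, were followed across 6 samples of cultured mouse germ cells in which Dazl had been knocked down. The 9 genes are Dazl, Boll, Dazap1, Dazap2, Pum2, Dnd1, Elavl2, Cpeb1 and Ybx2. They were chosen by name, and every array probe annotated with one of these names was used. This gave 14 probes of 41174, for 9 of 27961 gene names on the array. All 14 probes were well above background on all 6 arrays, so none was lost to the filter on dim probes. Dazl, Boll and Elavl2 had 2 probes each, Pum2 had 3 and the other 5 genes had 1.

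The cells were male primordial germ cells derived in vitro from Oct4-GFP embryonic stem cells of mixed C57BL/6 129SV background, in which GFP marks cells that express Oct4 (Pou5f1). All of them carried a vector with the tdTomato marker, either a control vector, Dazl hairpin 1 or Dazl hairpin 2. The hairpins are numbered as in the sample labels; the names of the deposited scanner files number the same pair 2 and 3. They had differentiated for 9 or 12 days on gelatin after feeder cells were depleted on plastic, and cells positive for GFP and tdTomato were then sorted by flow cytometry. Each combination of vector and day was 1 sample on 1 array, which gave 2 control and 4 knockdown arrays. Whether these were separate cultures is not stated, and p-values therefore cover only the spread among the 6 samples, which may be technical. The arrays of a day shared 1 slide, which cannot be told apart from the day, and each vector kept its position on both slides, which cannot be told apart from the vector.

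DAZL is a germ cell protein of the DAZ family that binds U-rich elements in the 3' untranslated regions of mRNAs and can recruit poly(A)-binding protein to promote translation. BOLL is the ancestral member of the same family and acts mainly in later male germ cells, while DAZAP1 and DAZAP2 were named for their binding to DAZ proteins. PUM2, DND1, ELAVL2, CPEB1 and YBX2 bind other mRNA elements or mRNAs at large and act on translation, storage or stability. The comparison of the vectors asks whether the mRNA of these proteins differed in cells with little Dazl mRNA. DAZL acts largely on translation, which these arrays did not measure.

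Total RNA was labelled in 1 colour, and values are given on 2 scales. The signal is the background-subtracted brightness of a probe in scanner units. The level is the log2 of that signal minus the log2 of the array's 75th percentile, so a level of 0 equals that percentile. The 75th percentile was 629 to 745 across the arrays, and 70.3% to 73.3% of probes were well above background on each. Levels compare 1 probe across arrays, never 1 probe with another. In these sorted populations, fewer cells expressing a gene and less of its RNA per cell cannot be told apart.

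Of 12 listed markers of primordial germ cells, 11 had a probe under their name and all 11 were well above background on all 6 arrays; Prdm14 was not matched. Their scaled signals summed to 78.8 to 90.9 times the 75th percentile on the knockdown arrays and 77.2 to 84.4 on the controls. Single genes moved in opposite directions within this sum. Against the same day's control, 3 of the 11 were higher in all 4 pairs and 1 was lower. Pou5f1, among the 3, had a fitted knockdown difference of 0.70, and Dppa3, the 1 that was lower, had -0.62. The summed signal of 8 endoderm markers was higher on the knockdown arrays, at 1.79 to 2.62 against 0.982 to 1.05. Of the 8 genes, 5 were higher than the same day's control in all 4 pairs and 0 were lower. The sum of 7 neural markers was also higher, at 4.37 to 4.92 against 2.57 to 2.77. Only 2 of these 7 genes, Stmn2 and Stmn3, were higher in all 4 pairs, and 1, Dcx, was lower. Among the endoderm and neural markers, Ttr and Neurod1 were well above background on 0 arrays and Dcx on 1. The sum for 7 fibroblast markers was above the same day's control on all 4 knockdown arrays, at 5.51 and 7.99 against 5.39 at day 9 and 3.35 and 7.08 against 2.03 at day 12, and 5 of the 7 genes were higher in all 4 pairs. The sum for 5 gonadal somatic markers was below that control on all 4, at 0.379 and 0.291 against 0.391 and at 0.423 and 0.363 against 0.447. Of these 5 genes, 2 were lower in all 4 pairs and 0 were higher. Of the 5 fibroblast markers that were higher in all 4 pairs, Lum was well above background on only 4 arrays and Lox on 3. The part of these other cell types in the differences given here was not tested.

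The sequence just upstream of the annotated start is shown for Dazl, Boll and Cpeb1, the genes with the largest knockdown differences among those whose every probe read lower on all 4 knockdown arrays than on both controls with the scanner's background subtraction. Each is the 250 bases before a RefSeq start in GRCm38.p6, on the minus strand of its chromosome, written 5' to 3' with CpG dinucleotides in capitals. CpG content is shown because methylation of CpGs in promoters is known to keep Dazl silent outside the germ line; no methylation was measured here. The windows are chr17:50293621-50293870 for Dazl, chr1:55363754-55364003 and chr1:55362729-55362978 for 2 starts of Boll, and chr7:81454759-81455008 for Cpeb1.
Dazl: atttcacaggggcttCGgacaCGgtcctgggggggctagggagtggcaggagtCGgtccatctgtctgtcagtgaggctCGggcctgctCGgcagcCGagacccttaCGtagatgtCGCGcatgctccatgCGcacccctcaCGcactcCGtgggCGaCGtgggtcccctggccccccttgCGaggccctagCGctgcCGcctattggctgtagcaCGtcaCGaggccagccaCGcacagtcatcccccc
Boll, first start: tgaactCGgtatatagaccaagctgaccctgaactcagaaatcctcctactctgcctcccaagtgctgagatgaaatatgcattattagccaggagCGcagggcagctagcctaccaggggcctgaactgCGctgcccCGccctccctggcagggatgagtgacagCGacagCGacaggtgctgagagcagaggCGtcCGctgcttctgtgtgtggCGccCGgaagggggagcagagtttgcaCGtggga
Boll, second start: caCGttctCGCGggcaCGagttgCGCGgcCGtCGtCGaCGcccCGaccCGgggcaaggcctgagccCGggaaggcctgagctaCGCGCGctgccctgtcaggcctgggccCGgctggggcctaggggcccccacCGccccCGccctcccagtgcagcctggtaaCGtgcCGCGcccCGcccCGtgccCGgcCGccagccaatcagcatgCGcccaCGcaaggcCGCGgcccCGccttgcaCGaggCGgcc
Cpeb1: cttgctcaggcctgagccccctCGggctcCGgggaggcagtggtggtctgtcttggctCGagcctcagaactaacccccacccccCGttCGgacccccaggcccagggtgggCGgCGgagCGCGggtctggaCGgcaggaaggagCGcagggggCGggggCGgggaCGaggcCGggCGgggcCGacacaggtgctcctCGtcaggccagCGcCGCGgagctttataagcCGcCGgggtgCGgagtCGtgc
The Dazl window held 20 CpGs, a number reached by 17.9% of all 32851 such windows. The 2 Boll windows held 11 and 33, reached by 35.6% and 4.03%, and the Cpeb1 window held 25, reached by 10.7%. The E-box letters CACGTG, which read the same on both strands, were in the first Boll window and in 6.02% of all windows, and were not in the other 3 windows shown. These counts describe the letters only.

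Dazl mRNA was far lower with both hairpins at both days. For probe A_52_P271166 (NM_010021, chromosome 17) the signal was 1570 with the control vector, 79.3 with hairpin 1 and 154 with hairpin 2 at day 9. At day 12 it was 4190, 145 and 178. Probe A_51_P246060, for the same transcript, read 499, 23.2 and 24.8 at day 9 and 1330, 48.3 and 36.3 at day 12. The groups did not overlap on either probe, and every knockdown signal was far below either control.

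After scaling, 3.54% to 8.28% of the same day's control remained on A_52_P271166 and 3.0% to 4.46% on A_51_P246060. The level of A_52_P271166 was -2.35 ± 0.51 on the knockdown arrays (SD, n = 4) and 1.95 ± 0.89 on the controls (SD, n = 2). The fitted log2 difference, with day as a term, was -4.30 (SE 0.29, 95% interval -5.00 to -3.60), which leaves 5.07% of control. It missed the threshold of 0.05 by a little (limma, adjusted p = 0.0547), and passed it with the vector as a replicate block (limma, adjusted p = 0.0135), a fit that called 4 of all probes (0.0132%). That block removes the spread between the hairpins, so its p-value does not cover how vectors vary.

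For A_51_P246060 the level was -4.42 ± 0.53 (SD, n = 4) against 0.30 ± 0.89 (SD, n = 2). Its fitted difference of -4.72 (SE 0.17, 95% interval -5.14 to -4.30) leaves 3.80% of control and passed (limma, adjusted p = 0.0046, the smallest of all 30204 probes tested). With normexp background correction in place of the scanner's subtraction, the difference was -3.09, which leaves 11.7%, and did not pass (limma, adjusted p = 0.161); on A_52_P271166 the share was then 7.49%. The call was lost without any 1 of 5 arrays, with adjusted p from limma of 0.0522 without hairpin 2 of day 9 to 0.233 without the control of day 12. The fitted difference then stayed between -4.90 and -4.53.

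Of the 14 probes, 1 passed the adjusted threshold, while 2 of the 30204 tested did (0.00662%). The other was a probe of Lgi1, a gene outside the 9 that was named after its values were seen. That probe was well above background on only 2 arrays, the fewest that the filter allowed. Without adjustment, p was under 0.05 for 5 of the 14 probes, against 9.88% of all probes. These were both Dazl probes and 1 probe each of Boll, Elavl2 and Cpeb1. All 4 knockdown arrays lay below both controls for 8 of the 14 probes, against 11.9% of all probes, and above both controls for 0, against 8.65%. These 8 were both probes of Dazl and of Boll, 1 of the 3 Pum2 probes, 1 of the 2 Elavl2 probes, and the probes of Dazap2 and Cpeb1. Probes of 1 gene share its mRNA, and Dazl was the target of the hairpins. With normexp, all 4 knockdown arrays lay below both controls for 7 of the 14, against 7.17% of all probes. A_52_P340894 of Boll and A_51_P134835 of Elavl2, the dimmer probe of each gene, left the count, and A_52_P222685 of Pum2 joined it. The other Boll probe, A_51_P239214, stayed in it. The median fitted difference over the 14 probes, both targeted Dazl probes included, was -0.32, with -0.02 over all probes. With the Dazl probes left out, the 2 middle values were -0.19 and -0.16.

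**Figure D1:**
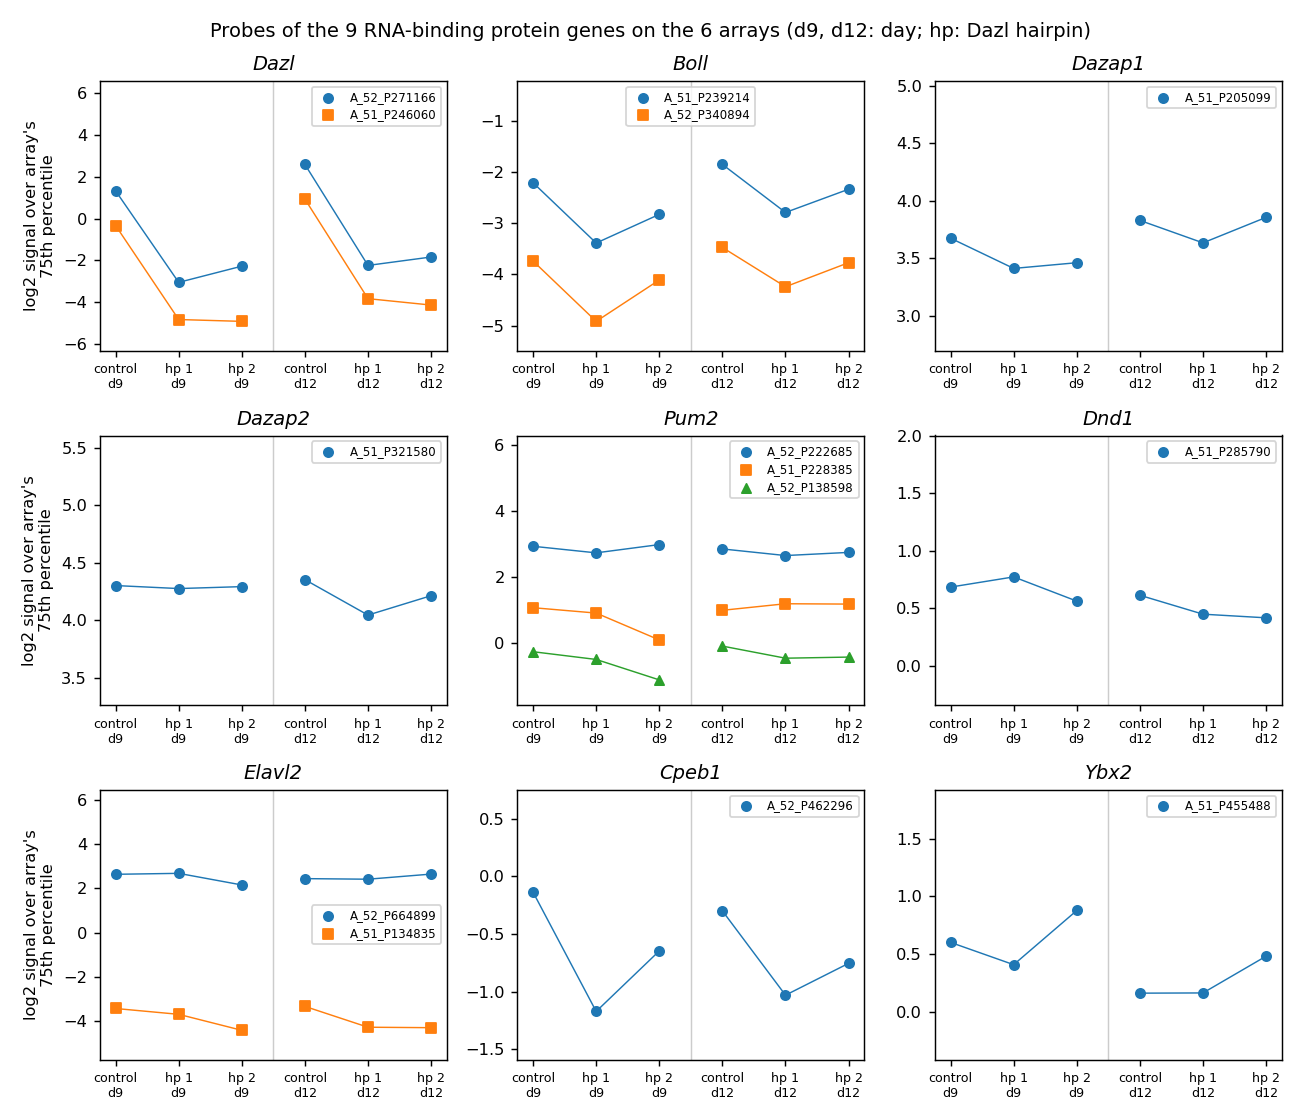
Each panel plots the level of a gene's probes (log2 signal over the array's 75th percentile) on the 6 arrays, with day 9 left and day 12 right of the grey line, 1 point per array and lines joining the arrays of a day; the vertical scales differ between panels. Dazl reads 1.32 in the control against -3.05 and -2.28 in the knockdown at day 9 on A_52_P271166, Boll and Cpeb1 are lowest with hairpin 1 at each day, and the Dazap2 levels span 0.31 log2 units.

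Boll, the other DAZ family gene, read lower with both hairpins on both of its probes with the scanner's background subtraction, without passing the threshold. Probe A_51_P239214 (BQ257921, chromosome 1) had signals of 136, 62.7 and 105 at day 9 for control, hairpin 1 and hairpin 2, and 194, 99.0 and 126 at day 12. Its level was -2.84 ± 0.43 (SD, n = 4) against -2.03 ± 0.25 in controls (SD, n = 2), and all 4 knockdown arrays lay below both controls. The fitted difference was -0.80 (SE 0.23, 95% interval -1.36 to -0.25; limma, adjusted p = 0.394).

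Probe A_52_P340894 of Boll (NM_029267) was dimmer, with signals of 47.1, 21.7 and 43.2 at day 9 and 63.0, 36.2 and 46.6 at day 12. The order of the vectors was the same as on the first probe at both days, with hairpin 1 lowest. The fitted difference was -0.65 (SE 0.27, 95% interval -1.32 to 0.01; limma, adjusted p = 0.517). With normexp, hairpin 2 of day 9 read higher than its control on this probe, at a level of -2.16 against -2.63. Relative to the same day's control, 44.2% to 58.7% remained with hairpin 1 and 65.2% to 81.4% with hairpin 2 over both days and probes. Genes of chromosome 1, which holds Boll, also read lower in the knockdown, with a median difference of -0.19 over 659 genes and 72.8% of them lower. The medians of the other chromosomes ran from -0.03 to 0.07. The part of this shift in the Boll values was not tested.

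Cpeb1 encodes the protein that binds the cytoplasmic polyadenylation element and controls poly(A) tail length of stored mRNAs in germ cells. Its probe A_52_P462296 (NM_007755, chromosome 7) had signals of 572, 291 and 476 at day 9 and 569, 335 and 377 at day 12. The 2 controls were close to each other and all 4 knockdown arrays lay below them, at 48.8% to 72.9% of the same day's control after scaling. The level was -0.90 ± 0.24 (SD, n = 4) against -0.22 ± 0.11 (SD, n = 2). The fitted difference was -0.68 (SE 0.20, 95% interval -1.18 to -0.19), which leaves 62.3% of control, and did not pass (limma, adjusted p = 0.403; 0.216 with the replicate block).

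The 2 probes of Elavl2, a germ cell and neuronal member of the ELAV family that binds AU-rich elements, disagreed. The bright probe A_52_P664899 (NM_207685, chromosome 4) had signals of 3910, 4200 and 3320 at day 9 and 3800, 3650 and 3980 at day 12. Its groups overlapped, and its fitted difference was -0.07 (SE 0.20, 95% interval -0.57 to 0.44; limma, adjusted p = 0.950). The dim probe A_51_P134835, with the same accession, read 58.9, 51.2 and 35.3 at day 9 and 70.0, 35.7 and 32.7 at day 12. On it all 4 knockdown arrays lay below both controls, with a fitted difference of -0.79 (SE 0.23, 95% interval -1.36 to -0.22; limma, adjusted p = 0.403). With normexp, hairpin 2 of day 9 lay above both controls on this probe. No level of Elavl2 as a gene is given, since its probes did not move together.

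Pum2, a Pumilio repressor that binds UGUA-containing elements, had 3 probes on chromosome 12. The brightest, A_52_P222685 (AK147617), had signals of 4780, 4340 and 5870 at day 9 and 5030, 4280 and 4250 at day 12, and a fitted difference of -0.11 (SE 0.15, 95% interval -0.48 to 0.25). A_51_P228385 (NM_030723) had 1310, 1220 and 787 at day 9 and 1380, 1550 and 1430 at day 12. Its difference of -0.19 (SE 0.29, 95% interval -0.90 to 0.52) turned to 0.04 without hairpin 2 of day 9 and to 0.19 without the control of day 9. A_52_P138598 (AK141682) read 518, 459 and 339 at day 9 and 649, 492 and 468 at day 12. All 4 knockdown arrays lay below both controls on this probe, and its difference of -0.45 (SE 0.21, 95% interval -0.96 to 0.06) did not pass (limma, adjusted p = 0.550). The array of hairpin 2 at day 9 was the lowest of the 6 on these last 2 probes and the highest on the brightest.

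Dazap1, an RNA-binding protein of testis and other tissues, was bright on its probe A_51_P205099 (NM_133188, chromosome 10), at 8040, 6990 and 8220 at day 9 and 9960, 8510 and 9220 at day 12. The groups overlapped, with a difference of -0.16 (SE 0.15, 95% interval -0.52 to 0.20; limma, adjusted p = 0.763). Dazap2, a small proline-rich protein, was the brightest of the 14 probes (A_51_P321580, NM_011873, chromosome 15), at 12400, 12700 and 14600 at day 9 and 14300, 11300 and 11800 at day 12. Its 4 scaled knockdown levels lay below both controls, but at day 9 by only 0.03 and 0.01. Its fitted difference of -0.12 (SE 0.14, 95% interval -0.48 to 0.23) did not pass (limma, adjusted p = 0.828).

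Dnd1, which is needed for the survival of primordial germ cells, had signals of 1010, 1120 and 1100 at day 9 and 1070, 934 and 849 at day 12 (A_51_P285790, NM_173383, chromosome 18). Its difference was -0.10 (SE 0.15, 95% interval -0.46 to 0.26; limma, adjusted p = 0.870). Ybx2, a Y-box protein that packages stored mRNAs in later germ cells, read 954, 870 and 1370 at day 9 and 782, 766 and 888 at day 12 (A_51_P455488, NM_016875, chromosome 11). It was the only probe of the 14 with a fitted difference above 0, at 0.10 (SE 0.20, 95% interval -0.38 to 0.58; limma, adjusted p = 0.908), and its groups overlapped. The intervals of Dazap1, Dazap2, Dnd1 and Ybx2 all held 0, with outermost limits of -0.52 and 0.58. For each gene, differences within its own interval were not excluded by these arrays.

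**Figure D2:**
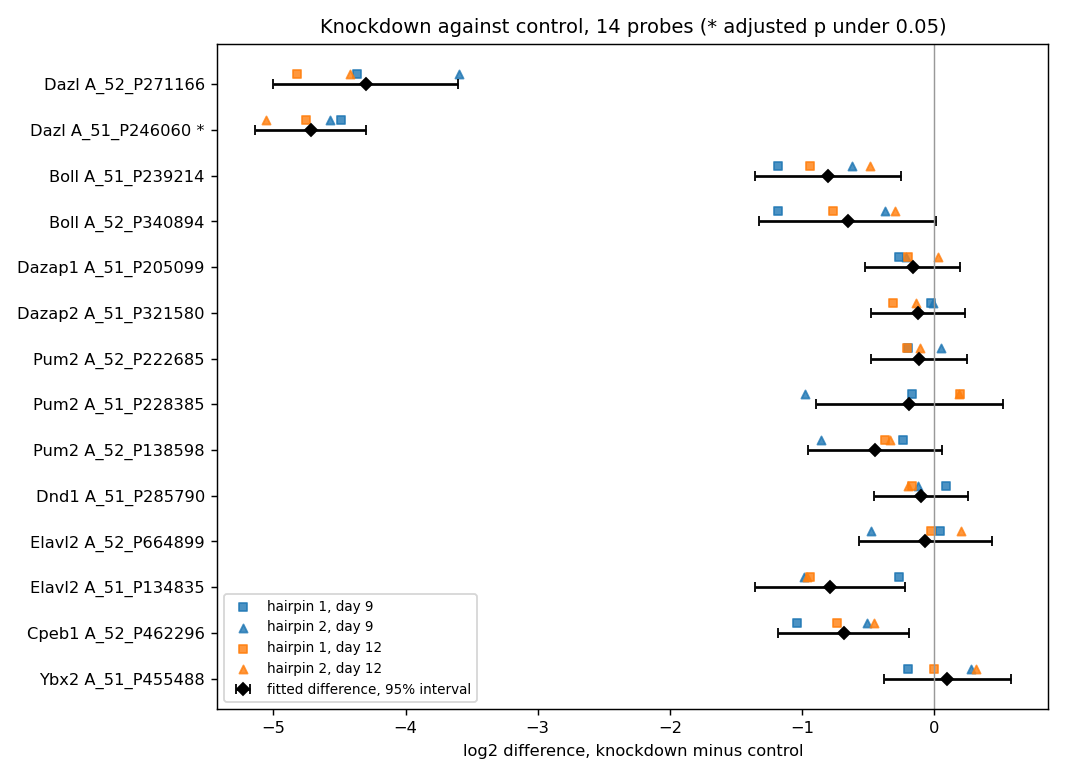
Knockdown minus control on the log2 scale for the 14 probes: small symbols are the 4 knockdown arrays minus the same day's control, and diamonds with bars are the fitted difference with its 95% interval. The Dazl probes lie at -4.30 and -4.72, and all others between -0.80 and 0.10, with A_51_P246060 alone past the adjusted threshold.

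At each day taken alone, with 2 knockdown arrays against 1 control, 0 of the 14 probes and 0% of all probes passed in limma; without adjustment, 2 of the 14 at day 9 and 3 at day 12 were under 0.05, against 3.8% and 4.62% of all probes. The Dazl differences were -3.98 (SE 0.40) at day 9 and -4.62 (SE 0.40) at day 12 on A_52_P271166, and -4.53 (SE 0.26) and -4.90 (SE 0.26) on A_51_P246060. With the replicate block both Dazl probes passed at each day, among 203 probes of all tested at day 9 (0.672%) and 209 at day 12 (0.692%). That fit has 1 residual degree of freedom, so its SE came almost wholly from the spread shared over all probes, at 0.31 to 0.33 for every one of the 14, and these calls are no support for an effect within a day. These fits take the spread of the lone control to be that of the knockdown arrays. The change in the knockdown difference from day 9 to day 12 was -0.64 (95% interval -2.08 to 0.80) and -0.37 (95% interval -1.30 to 0.56), and 0 of the 14 probes passed for it with limma, with or without the block, under which 22 of all probes did (0.0728%). At an unadjusted p under 0.05 the count was also 0 of 14, against 1.51% of all probes.

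With the scanner's background subtraction, Dazl read higher at day 12 than at day 9 with all 3 vectors. The scaled signal of A_52_P271166 was 2.40-fold higher with the control vector, 1.75-fold with hairpin 1 and 1.35-fold with hairpin 2. A_51_P246060 gave 2.39-fold, 1.99-fold and 1.71-fold. With normexp, hairpin 2 instead read lower at day 12 on A_51_P246060, at a level of -2.74 against -2.31 at day 9. The fitted differences were 0.84 (SE 0.27, 95% interval 0.18 to 1.5; limma, adjusted p = 0.350) and 1.01 (SE 0.16, 95% interval 0.61 to 1.41; limma, adjusted p = 0.123; 0.0670 with the replicate block). With normexp they were 0.60 and 0.34. Neither passed, with 0 of the 14 probes called in limma against 17 of all tested (0.0563%), and 2 of 14, both of Dazl, with an unadjusted p under 0.05 against 10.7%.

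With the scanner's subtraction, 6 of the 14 probes read higher at day 12 with all 3 vectors, against 20.4% of all probes. Another 3 read lower with all 3, against 18.5%. The 6 were both probes of Dazl and of Boll, Dazap1, and A_52_P138598 of Pum2. Boll had fitted values of 0.48 (SE 0.21, 95% interval -0.04 to 1.0) and 0.43 (SE 0.26, 95% interval -0.20 to 1.06); the second, on the dim probe, turned to -0.11 with normexp. Dazap1 gave 0.26 (SE 0.14, 95% interval -0.08 to 0.60). Ybx2, Dnd1 and A_52_P222685 of Pum2 were the 3 that read lower, with -0.36 (SE 0.18, 95% interval -0.81 to 0.09) for Ybx2 and -0.18 for Dnd1. For Cpeb1 the day difference was -0.04 (SE 0.19, 95% interval -0.51 to 0.42).

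The 2 hairpins did not differ past the threshold in their Dazl level, and the 2 probes gave opposite signs with the scanner's subtraction; with normexp both were above 0, at 0.57 and 0.38. Hairpin 2 minus hairpin 1 was 0.59 (SE 0.24, 95% interval -0.00 to 1.18; limma, adjusted p = 0.470) on A_52_P271166 and -0.20 (SE 0.19, 95% interval -0.67 to 0.28; limma, adjusted p = 0.684) on A_51_P246060. Boll was higher with hairpin 2 at both days on both probes, by 0.51 (SE 0.17, 95% interval 0.08 to 0.93) and 0.64 (SE 0.19, 95% interval 0.17 to 1.11). Cpeb1 gave 0.40 (SE 0.18, 95% interval -0.04 to 0.84) and Ybx2 0.39 (SE 0.17, 95% interval -0.02 to 0.81), also higher with hairpin 2 at both days. Of the 14 probes 0 passed in limma, against 1 of all tested (0.00331%), and 2, both of Boll, had an unadjusted p under 0.05 against 10.7% of all probes. Hairpin 2 read higher at both days for 8 of the 14, against 30.5% of all probes.

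**Figure D3:**
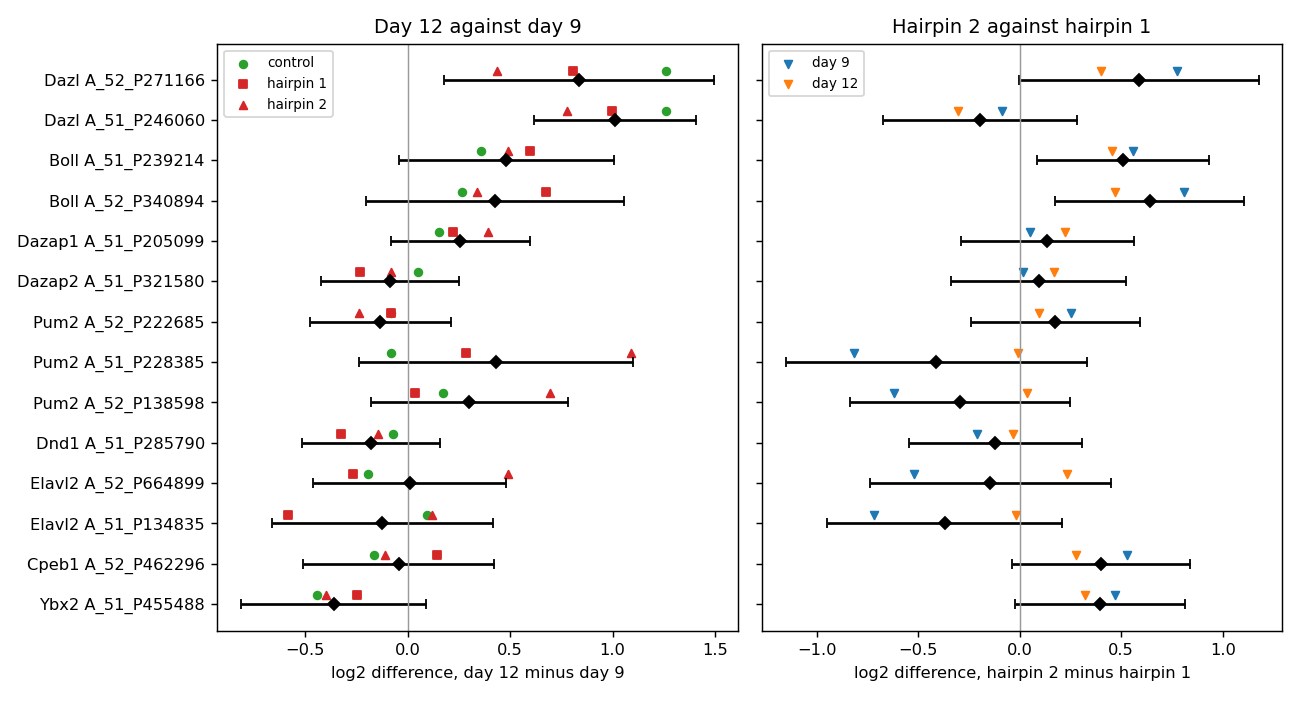
Left, day 12 minus day 9 for each vector, and right, hairpin 2 minus hairpin 1 at each day, on the log2 scale for the 14 probes; diamonds with bars are fitted differences with 95% intervals. The Dazl probes have the largest day differences, 0.84 and 1.01, and the largest hairpin differences are those of the dim Boll probe, 0.64, A_52_P271166 of Dazl, 0.59, and the other Boll probe, 0.51; no probe passed the adjusted threshold in either panel.

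The size of the difference on dim probes depended on the background correction. With normexp and an offset of 50 in place of the scanner's subtraction, Boll gave -0.45 and -0.08, the dim Elavl2 probe -0.12 and Cpeb1 -0.60. The Dazl probes gave -3.74 (limma, adjusted p = 0.0465) and -3.09 (limma, adjusted p = 0.161), so each changed sides of the threshold.

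**Figure D4:**
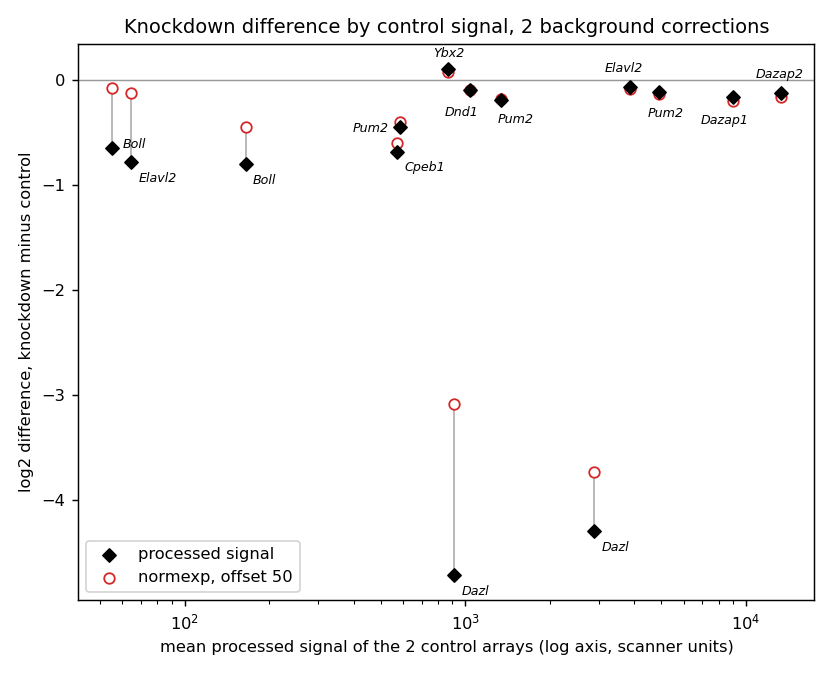
Fitted knockdown difference (log2) of the 14 probes against the mean signal of the 2 control arrays (log axis, scanner units), with the scanner's background-subtracted signal (diamonds) and with normexp at an offset of 50 (circles). The 3 dimmest probes, 2 of Boll and 1 of Elavl2, move from -0.80, -0.65 and -0.79 to -0.45, -0.08 and -0.12, and the Dazl probes to -3.74 and -3.09.

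Genes that work beside these proteins were counted in 3 lists, 1 probe per gene, and 0 genes of any list passed in the knockdown, day or hairpin comparison with limma. Of 20 further RNA-binding proteins of germ cells and relatives, 19 were tested in the knockdown comparison, with 7 higher, 12 lower and a median difference of -0.07. The largest were Dzip1, a DAZ-interacting zinc finger protein, at 0.73 (SE 0.28), Elavl3 at 0.68 (SE 0.42) and Lin28b, a repressor of let-7 maturation, at 0.52 (SE 0.20). Of 20 genes of polyadenylation and translation, 19 were tested, with 2 higher, 17 lower and a median of -0.05. The poly(A)-binding proteins Pabpc6 and Pabpc2 gave -0.58 (SE 0.18) and -0.52 (SE 0.22), and the initiation factor Eif4g3 -0.52 (SE 0.15). The Pabpc6 probe was dim, with levels of -5.70 to -4.11, and its knockdown and control groups overlapped. Of 24 genes of deadenylation and repression, 23 were tested, with 8 higher, 15 lower and a median of -0.09. The deadenylase subunits Cnot11, on chromosome 1, and Cnot7 gave -0.48 (SE 0.19) and -0.43 (SE 0.21), and the helicase Ddx6 -0.40 (SE 0.27). Over all probes the median was -0.02 and 53.2% were lower. Without adjustment, p was under 0.05 for 2, 2 and 1 genes of the 3 lists, against 9.88% of all probes.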

How the data were processed

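Total RNA of 6 samples was measured on Agilent 1-colour arrays. Per the file headers, the deposited scanner files hold spot intensity values from Agilent Feature Extraction 9.1.3.1, with background subtraction, spatial detrending and no normalization between arrays. Per the file headers, the deposited table holds a ratio, the background-subtracted signal normalized to the median; all 41529 entries of a column matched 1 spot at a tolerance of 1e-06. The deposited quality score, whose making is not stated, served only for that match.

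Spots of a probe were averaged, log2 values were centred on each array's 75th percentile, and 30204 probes well above background on at least 2 arrays entered linear models (limma 3.58.1, R 4.3.3). Tests were two-sided, with Benjamini-Hochberg adjustment over all tested probes and a threshold of 0.05; the code was tested on simulated data. Knockdown and day were terms of 1 fit (3 residual degrees of freedom); hairpin and within-day contrasts had 2, and within-day contrasts with the block 1. Deviations of arrays from their day's mean correlated across genes at 0.37, 0.50 and 0.24 for the same vector and -0.31 to -0.04 for different ones, so the vector was also fitted as a replicate block. That block removes the spread between the hairpins. Other alternatives were normexp, quantile scaling, 2 filters, 1 value per gene, the deposited table, trended variances and leaving out each array. The order of the arrays and the Dazl share under normexp were added after seeing the data. The number of arrays limits precision. Genes were named by list, up to 3 of largest knockdown difference, and by likeness to Dazl. The members, lists and tests were chosen with earlier results of these data known. RefSeq start windows were matched by gene for 8 of the 9 genes.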

Additional observations from a re-analysis of the deposited data

Results flagged for a closer look

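The Pum2 probe A_52_P138598 had 1 knockdown array far from the other 3: its level was -1.14 with hairpin 2 at day 9, against -0.52 with hairpin 1 at day 9, -0.48 with hairpin 1 at day 12 and -0.44 with hairpin 2 at day 12. This was the only 1 of the 14 probes whose gap passed Dixon's 95% limit over the 4 knockdown arrays, and chance alone passes it in about 5% of such groups. On the same array the Pum2 probe A_51_P228385 was also lowest, at 0.08, while A_52_P222685 was highest, at 2.98.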

How the results depend on the processing

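The knockdown difference of Dazl kept its sign under every alternative run. A_52_P271166 passed the threshold in limma with normexp (-3.74). It also passed with probes above background on all 6 arrays only, with trended robust variances and with the replicate block (-4.30 each). Leaving out 1 array gave -4.62 to -3.98 for this probe. The mean over both Dazl probes, which includes the probe called in the main fit, passed as well (-4.51). A_51_P246060 lost its call with normexp (-3.09) and gave -4.90 to -4.53 without 1 array. The count of member probes past the threshold, 1, became 2 with the strict filter, trended variances or the block, 0 with the brightest probe per gene, and 0 to 1 without 1 array; within day 9 and within day 12 it rose from 0 to 2 with the block, on 1 residual degree of freedom. The block changed no other member call. A_51_P246060, the member probe called in the main fit, was not in the fit of the brightest probe per gene. Signs turned in the day difference for the dim Boll probe with normexp (-0.11), for Pum2 with the mean of its probes (0.20) and for the bright Elavl2 probe with the mean (-0.057) and the deposited table (-0.040). They turned in the hairpin difference for A_51_P246060 of Dazl (0.38) and the dim Elavl2 probe (0.21) with normexp. The mean over a gene's probes was compared with its brightest probe, so it is not a second value of that probe. It had the other sign in the day difference for Pum2 (0.20) and Elavl2 (-0.057), and in the hairpin difference for Pum2 (-0.18). Leaving out 1 array gave knockdown differences of -0.57 to 0.19 for Pum2 A_51_P228385 and -0.22 to 0.089 for the bright Elavl2 probe. For the day the ranges were -0.17 to 0.13 and -0.30 to 0.11 for the Elavl2 probes and -0.21 to 0.090 for Cpeb1. For the hairpins they were -0.016 to 0.20 for Dazap2, -0.91 to 0.080 and -0.59 to 0.00066 for the dimmer Pum2 probes, and -0.51 to 0.21 for the bright Elavl2 probe. Of 662 member values, with each mean set against the brightest probe, 624 kept sign and side, 6 lost a call, 9 gained one and 23 turned. Over all probes, the knockdown count of 2 became 3 (strict or trended), 0 (brightest), 1 (mean) and 4 (block), and 0 to 1 without 1 array. The day count of 17 became 1 (normexp), 10 (quantile), 0 (no filter), 30 (brightest or mean), 6 (deposited table), 4 (trended) and 244 (block), and 0 to 3 without 1 array. The hairpin count of 1 became 91 (normexp), 0 (no filter), 3 (strict), 14 (brightest), 2 (mean or deposited table) and 30 (trended), and 0 to 1562 without 1 array. The block gave 203, 209 and 22 calls for day 9, day 12 and their difference, where there were 0. Beyond which probes a fit held, the cause of these changes was not tested. A slide block was not run apart from the day term, which is the same.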

Other observations

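Among 5011 genes whose level spanned at least 1 log2 unit over the 6 arrays, the 5 whose levels followed Dazl (A_52_P271166) most closely were Hoxb7 (Pearson's r 0.998), Lmx1b (0.991), Rnf180 (0.986), Cd7 (0.985) and D330045A20Rik (0.982). Hoxb7 and Lmx1b encode homeodomain transcription factors. The 6 arrays share the gap between control and knockdown, so each r largely restates that gap and is a description with no test. Their knockdown differences were -0.96, -1.31, -1.20, -1.13 and -1.67, each far smaller than that of Dazl, and none passed (limma, adjusted p from 0.0956 to 0.232).

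The array also held a probe for a clone annotated as an RNA binding site for Dazl (A_51_P145276, AJ409488). It was not well above background on any of the 6 arrays.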
